A study of Sus scrofa with 8 samples.

Results

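The enzymes that oxidize, conjugate and detoxify foreign compounds and reactive aldehydes were examined in lung of Tibetan and Duroc pigs kept at high or low altitude. The members were array probes whose gene symbol starts with CYP, GSTA, GSTM, GSTO, GSTP, GSTT, MGST, UGT, SULT, FMO, ADH or ALDH and whose signal was well above background on at least 1 array. Of 43603 probes on the array, 67 carried such a symbol and 59 of these, for 42 genes, met the signal rule. A total of 41 member probes, for 29 genes, were named through the RefSeq accession that the array design gives for the probe. The other 18 probes had a name only in the supplementary tables of the study. These tables, as used here, hold the probes with the strongest effects in these same arrays, so that their probes are described by their values and are neither tested nor counted among the calls. No probe of CYP2C42, CYP19A2 or CYP19A3 was above background on any array.

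Tibetan pigs at high altitude (TH) and Duroc pigs at low altitude (DL) came from the native herds of each place. Tibetan pigs moved to low altitude (TL) and Duroc pigs moved to high altitude (DH) changed place at 1 month of age. High altitude was 3500 m and low altitude 40 m, and lungs were taken from all pigs at 6 months of age. Each group had 2 arrays, each hybridized with the RNA of 1 pig of the 8 raised per group, so that 2 animals stand for a breed at a place and a migrated group also differs from a native one by the move.

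Both TH and both DL arrays shared 1 slide, and both TL and both DH arrays the other. The slide contrast therefore cannot be told apart from the breed by altitude interaction, and the position on the slide cannot be told apart from breed, whereas altitude was balanced over both. For 41 probes with 5 spots per array, the median log2 difference was 0.0355 from array to array within a group and 0.0509 from spot to spot within an array. The p-values measure this small spread between arrays, which may be technical. The TL arrays stood apart, with a median raw signal of 324 and 333.5 against 207.5 to 230.0 on the other arrays, and Pearson's r across probes was 0.918 to 0.941 between TL and other arrays against 0.961 to 0.967 among arrays of the other groups. Lung identity was checked on the surfactant genes SFTPA1, SFTPB, SFTPC and SFTPD, all well above background on 8 of 8 arrays.

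Cytochrome P450 enzymes (CYP) insert oxygen into lipophilic compounds, and flavin monooxygenases (FMO) oxygenate nitrogen and sulfur atoms. Glutathione transferases, sulfotransferases and glucuronosyltransferases then attach polar groups, and alcohol and aldehyde dehydrogenases oxidize alcohols and the aldehydes left by lipid peroxidation, tobacco smoke or ethanol. The liver holds most of this activity, while the lung carries its own set in club cells, alveolar type II cells and endothelium, where CYP1A1 is a classical target of the aryl hydrocarbon receptor.

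Expression is given as the normalized log2 signal deposited by the authors. The breed effect is the mean of both Tibetan groups minus the mean of both Duroc groups, the altitude effect compares both groups at high altitude with both at low altitude in the same way, and the interaction is the difference TH minus TL reduced by the difference DH minus DL. An effect was called at an FDR below 0.0001 in limma over all 34406 tested probes. The breed effect was called for 12 of 41 member probes, 6 higher and 6 lower in Tibetan pigs, where 27.4% of all tested probes were called, 12.8% higher and 14.6% lower. The altitude effect was called for 15 of 41, 12 higher and 3 lower at high altitude, against 26.3% of all tested probes (14.0% higher and 12.2% lower) and 36.0% of the tested probes named by RefSeq accession. The interaction was called for 11 of 41, 8 positive and 3 negative, against 28.4% (14.9% positive and 13.5% negative). Among the 2478 tested probes named by RefSeq accession, 28.6% were called for breed, 230 higher and 478 lower in Tibetan pigs. The altitude calls among them were 649 higher and 244 lower at high altitude. For the interaction 27.8% of them were called, 545 positive and 145 negative. Raw spot signals gave splits of 4 and 2 for breed, 10 and 1 for altitude and 7 and 1 for the interaction, and scaling to the 75th percentile gave 10 and 2 for the interaction. As a whole the enzymes were thus called at shares near those of other probes named the same way. The medians over the 41 probes were -0.04 for breed, 0.39 for altitude and 0.51 for the interaction, beside -0.07, 0.01 and 0.21 over all tested probes and -0.11, 0.18 and 0.37 over those named by RefSeq accession.

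Most genes called for an effect belonged to P450 families 1 to 4, which hold the enzymes of foreign compounds and the fatty acid and bile acid hydroxylases of family 4. At the brightest probe of each gene, 7 of these 10 genes were called for breed, 8 for altitude and 6 for the interaction. In all, 11, 13 and 9 genes were called. Among tested probes named by RefSeq accession, 28.6%, 36.0% and 27.8% were called for these effects. The 8 altitude effects were all positive as means over both breeds. DH was nevertheless below DL for CYP2A19 and CYP2D25, and DH and DL overlapped for CYP2C49. Of the other 19 genes, 10 belong to steroid, sterol and vitamin D metabolism, where 4, 3 and 1 were called, and none of the 3 sulfotransferase genes was called for any effect by limma. Whether the groups of enzymes differ in how often they were called was not tested. With any 1 of the 8 arrays left out, 3 to 4 member probes remained past the threshold for breed, 3 to 6 for altitude and 4 to 6 for the interaction. With raw spot signals the calls of FMO1, GSTA1 (both interaction), GSTO1 (altitude), CYP24A1, CYP2B22, CYP2D25 (all breed), CYP39A1 (breed and interaction), CYP51 and CYP2A19 (both breed and altitude) were lost in limma. Without both TL arrays, the contrast of TH with DH called 2 and that of DH with DL called 0, with 26 at an unadjusted p under 0.05 in limma.

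**Figure D1:**
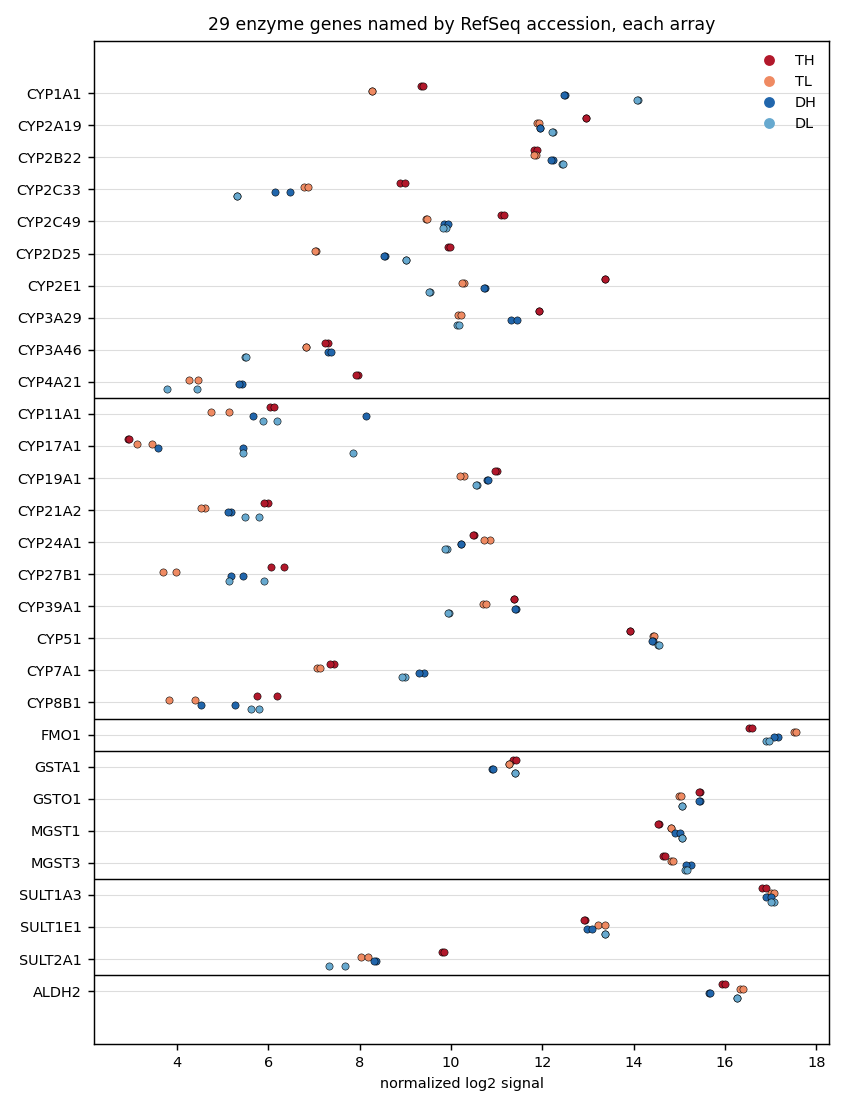
Normalized log2 signal (horizontal axis) of the 29 enzyme genes named by RefSeq accession, each at its brightest such probe, with 1 point per array and 2 arrays per group (TH, TL, DH, DL). Horizontal rules separate P450 families 1 to 4, other P450 genes, FMO1, glutathione transferases, sulfotransferases and ALDH2; CYP1A1 spreads from 8.27 to 14.09 while the points of SULT1A3 lie close together.

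CYP1A1 (A_72_P223362), which oxidizes polycyclic aromatic hydrocarbons, had the largest breed effect of the 29 genes. Its log2 signal was 9.35 and 9.38 in TH, 8.27 and 8.27 in TL, 12.49 and 12.47 in DH, and 14.09 and 14.08 in DL. All 4 Duroc arrays lay above all 4 Tibetan arrays, and the arrays of a group were nearly equal. The breed effect was -4.47 (standard error 0.02, adjusted p 3.39e-07 in limma), or 22.1-fold lower in Tibetan pigs. The breed difference was 56.5-fold at low altitude and 8.66-fold at high altitude. TH minus TL was 1.10 and DH minus DL was -1.61, and the interaction was 2.71 (standard error 0.03, adjusted p 1.04e-06 in limma). The difference of Tibetan minus Duroc arrays was -4.72 on the slide of TH and DL and -4.21 on the slide of TL and DH. Without both TL arrays, TH lay below DH with a difference of -3.11. The altitude effect of -0.26 was not called (adjusted p 0.000105 in limma), but was -0.42 and called under 75th percentile scaling.

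The aryl hydrocarbon receptor AHR was named by the tables and hence not tested. Its brighter probe had mean values of 11.8 in both Tibetan groups, 11.3 in DH and 11.7 in DL. The dimmer AHR probe had its highest mean in DL at 9.35, followed by TH at 9.24, TL at 9.05 and DH at 8.97. The TH and DL arrays overlapped there, so the AHR probes disagreed on breed. NQO1, a quinone reductase that the same receptor and NRF2 control, was highest in TH at 11.41 and 11.45, with 9.94 and 9.79 in TL, 10.40 and 10.38 in DH, and 10.45 and 10.50 in DL. Its interaction of 1.64 was called, and its breed effect of 0.21 was not called. TIPARP, another target of the receptor and also named by the tables, read 10.69 on both TH arrays, 10.33 on both TL arrays, 10.76 and 10.75 in DH, and 11.14 on both DL arrays at its brighter probe. The order of the groups was that of CYP1A1 for this probe of TIPARP, whereas NQO1 and the dimmer TIPARP probe had other orders. No probe of CYP1A2, CYP1B1 or AHRR was named here, and these genes were not analysed.

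CYP2E1 (A_72_P165451), the P450 of ethanol and small solvents, stood out in TH. It read 13.36 and 13.37 in TH, 10.28 and 10.24 in TL, 10.74 and 10.72 in DH, and 9.55 and 9.51 in DL. Both TH arrays were far above the other 6, 8.63-fold above TL and 6.23-fold above DH on the group means. The altitude effect of 2.15 and the breed effect of 1.68 (standard error of both 0.02) and the interaction of 1.91 (standard error 0.04) were all called by limma, with adjusted p of 2.02e-06, 1.45e-06 and 2.18e-06. CYP2E1 was also higher in DH than in DL, by 1.20. On the slide of TL and DH the Tibetan arrays were slightly lower, with a difference of -0.47, against 3.84 on the slide of TH and DL. A second CYP2E1 probe was not above background on any array.

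Altogether 7 of the 10 genes of P450 families 1 to 4 had both TH arrays above the other 6 arrays, where 18.1% of all tested probes and 29.6% of those named by RefSeq accession did so. These were CYP2A19, CYP2C33, CYP2C49, CYP2D25, CYP2E1, CYP3A29 and CYP4A21. CYP2D25 (A_72_P165101), which also hydroxylates vitamin D in the pig, read 9.93 and 9.98 in TH, 7.05 and 7.03 in TL, 8.56 and 8.54 in DH, and 9.02 and 9.02 in DL. TH was highest and TL lowest with no overlap. Its interaction of 3.39 (standard error 0.04, adjusted p 8.92e-07 in limma) was the largest of the 29 genes. High altitude went with a higher level in Tibetan pigs, by 2.92, and not in Duroc pigs, where DH minus DL was -0.48. The breed effect of -0.29 and the altitude effect of 1.22 therefore average opposite differences. The contrasts left without the TL arrays had the other sign, with TH minus DH at 1.41 and DH minus DL at -0.48. The breed effect was -0.07 and not called under 75th percentile scaling.

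CYP2C33 (A_72_P185221), a member of the drug-metabolizing CYP2C subfamily, read 8.90 and 8.99 in TH, 6.78 and 6.88 in TL, 6.15 and 6.47 in DH, and 5.31 and 5.32 in DL, where it was not well above background. TH exceeded DL at least 9.53-fold, taking the weakest signal above background as the limit in DL. The breed effect of 2.07 (standard error 0.08, adjusted p 1.46e-05 in limma) and the altitude effect of 1.56 (standard error 0.08, adjusted p 3.99e-05 in limma) were called, the latter not under 75th percentile scaling (1.41, adjusted p 0.000101). Of its dimmer probes, 1 also had both TH arrays highest, and the other was above background on 2 arrays only.

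CYP2C49 (A_72_P176161), of the same subfamily, read 11.09 and 11.16 in TH, 9.45 and 9.47 in TL, 9.86 and 9.94 in DH, and 9.90 and 9.82 in DL. DH and DL overlapped, and TH lay apart above all. Its altitude effect was 0.85 and its interaction 1.63 (adjusted p 1.73e-05 and 1.79e-05 in limma), and its second probe also had both TH arrays highest, with an interaction of 2.95. Its breed effect of 0.41 was not called, but was 0.59 and called under 75th percentile scaling.

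CYP4A21 (A_72_P036026), a bile acid hydroxylase of the pig, was well above background on both arrays in TH only, at 7.96 and 7.93. The other arrays read 4.27 and 4.46 in TL, 5.42 and 5.36 in DH, and 4.43 and 3.79 in DL. TH was at least 4.99-fold above DH and at least 4.77-fold above DL. The altitude effect of 2.43 (standard error 0.15, adjusted p 7.77e-05 in limma) rests on these dim values.

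CYP2A19 (A_72_P035981), which degrades skatole in the pig, read 12.97 and 12.96 in TH, 11.89 and 11.93 in TL, 11.96 and 11.96 in DH, and 12.24 and 12.22 in DL. The interaction was 1.32 (adjusted p 3.82e-06 in limma). The probes of CYP2A19 disagreed on breed, since the brighter had an effect of 0.34 and the dimmer (A_72_P172956) one of -0.55, both called. On the dimmer probe TH read 10.25 and 10.14 and overlapped DL at 10.18 and 10.16. Both probes had a positive interaction and their lowest values in TL, so that the breed difference of this gene has no settled direction. Under 75th percentile scaling the effect of the brighter probe was 0.22 and was not called (adjusted p 0.000111 in limma).

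**Figure D2:**
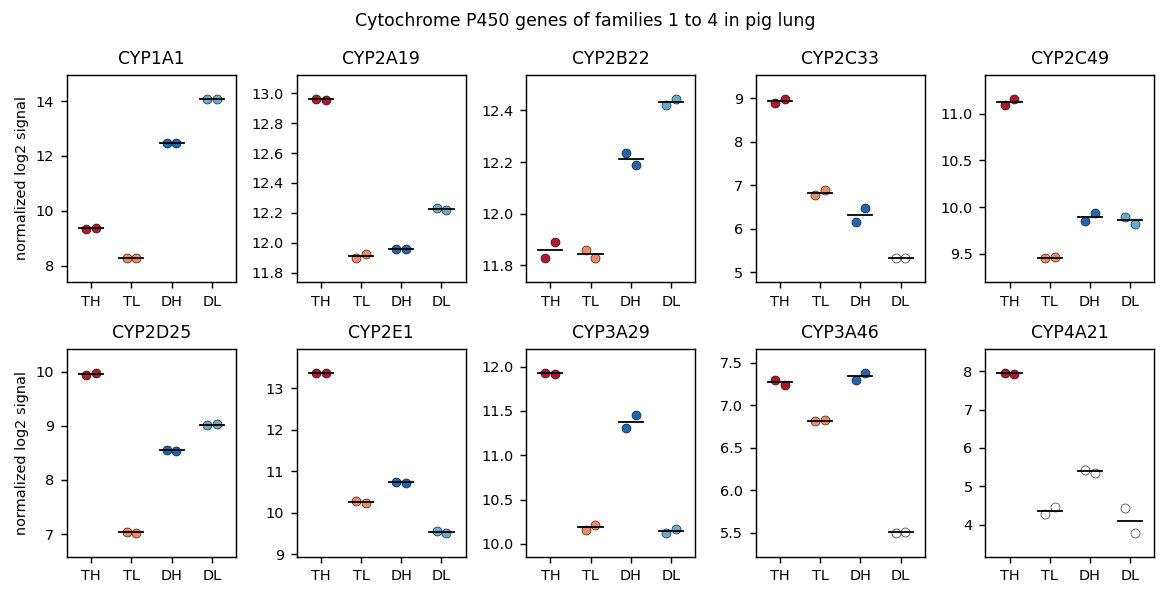
Normalized log2 signal (vertical axis, own range in each panel) of the 10 genes of P450 families 1 to 4 in TH, TL, DH and DL. Points are arrays, bars are means of 2 arrays, and open points mark groups not well above background on both arrays; TH is highest in 7 panels, and CYP1A1 is highest in DL at 14.09 and 14.08.

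The CYP3A genes encode the main drug oxidases of the liver and gut. CYP3A29 and CYP3A46 were called as higher at high altitude on the mean over both breeds. CYP3A39, named by the tables and hence not tested, was low in DL only. CYP3A29 (A_72_P088491) read 11.93 and 11.92 in TH, 10.16 and 10.22 in TL, 11.31 and 11.45 in DH, and 10.13 and 10.17 in DL. All 4 high altitude arrays exceeded all 4 low altitude arrays. The altitude effect was 1.49 (standard error 0.04, adjusted p 5.95e-06 in limma), made up of 1.74 in Tibetan and 1.23 in Duroc pigs. The breed effect of 0.29 and the interaction of 0.51 were not called.

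CYP3A46 (A_72_P322704) read 7.30 and 7.24 in TH, 6.82 and 6.82 in TL, 7.30 and 7.38 in DH, and 5.50 and 5.51 in DL, where it was not well above background. DH exceeded DL at least 3.14-fold, while TH exceeded TL by 0.45. Altitude was called at 1.14, breed at 0.62 and the interaction at -1.38, with adjusted p of 4.99e-06, 2.15e-05 and 1.47e-05 in limma. TH and DH overlapped, and the breed effect comes from the low altitude groups. Without the TL arrays the breed contrast left was TH minus DH, at -0.07.

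CYP2B22 (A_72_P185176), of the barbiturate-inducible CYP2B subfamily, was lower in Tibetan pigs. It read 11.83 and 11.89 in TH, 11.86 and 11.83 in TL, 12.24 and 12.19 in DH, and 12.42 and 12.45 in DL. TH and TL overlapped and lay below both Duroc groups. The breed effect was -0.47 (standard error 0.02, adjusted p 4.06e-05 in limma), with -0.58 and -0.37 on the slides.

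**Figure D3:**
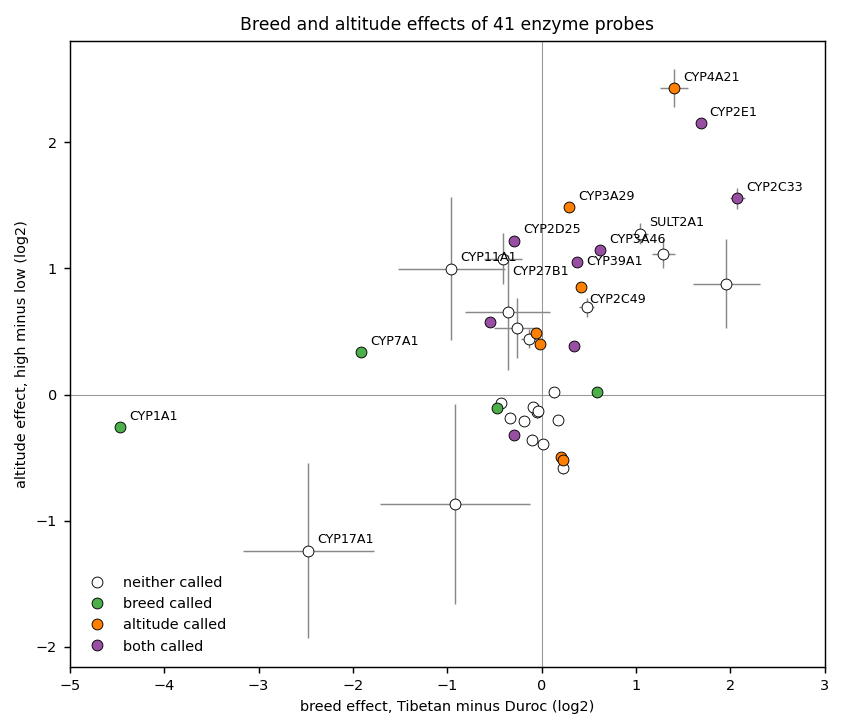
Breed effect (horizontal axis, log2) against altitude effect (vertical axis, log2) of the 41 tested enzyme probes, with standard errors as bars and colors for effects called at an FDR below 0.0001. CYP1A1 lies alone at -4.47 on the breed axis, CYP4A21, CYP2E1 and CYP2C33 lie at the upper right, and CYP17A1, with wide bars, was above background on 1 array only.

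Plasma protein genes that are typical of liver were measured beside these P450 genes. Of the 12 listed hepatocyte genes, 7 had a tested probe named by RefSeq accession, all well above background on 8 of 8 arrays. ALB, APOC3, TTR and SERPINA1 were highest in TH with no overlap, and for these 4 the breed and the altitude effects were both called and positive. Among tested probes named by RefSeq accession, both TH arrays were highest at 29.6%, and 28.6% and 36.0% were called for breed and altitude. The interaction was called at -1.07 for ALB, 1.05 for TTR and 0.92 for SERPINA1, and was not called for APOC3. The altitude call of SERPINA1 was lost with raw spot signals. TTR, the thyroxine carrier, read 12.97 and 12.99 in TH and at most 11.18 elsewhere, with a breed effect of 1.39 and an altitude effect of 1.30. FGB and FGG, fibrinogen chains named by the tables and hence not tested, were also highest in TH, with means of 12.6 against at most 10.95 for FGB and of 11.57 against at most 9.53 at the brighter FGG probe. APOA1, HP and TF were not highest in TH, and TF had a breed effect of -0.59. The log2 of the summed signal of the 7 tested genes, in which the bright HP and TF probes weigh most, was 16.90 to 16.91 in TH, 17.07 to 17.10 in TL, 17.03 to 17.04 in DH, and 16.75 in DL. HNF4A, a regulator of liver genes, was above background on 4 arrays. The part of hepatocyte genes in the P450 values was not tested. In whole lung, a larger number of cells of a type and more RNA per cell cannot be told apart.

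**Figure D4:**
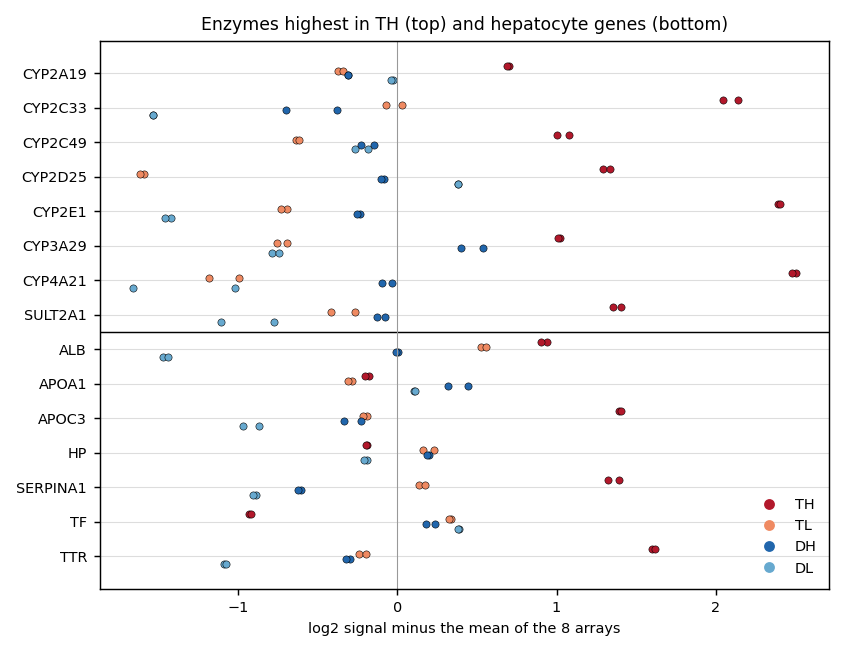
Log2 signal minus the mean over the 8 arrays (horizontal axis) for 7 P450 genes and SULT2A1, above the rule, and for 7 hepatocyte genes, below it, with 1 point per array. The enzymes shown were picked because both TH arrays were highest, so that TH lies to the right in all of them by choice. Among the hepatocyte genes TH lies to the right in ALB, APOC3, SERPINA1 and TTR, but not in APOA1, HP or TF.

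Among P450 genes of steroid, sterol and vitamin D metabolism, CYP39A1 (A_72_P088711), an oxysterol hydroxylase, had the altitude effect with the smallest adjusted p. It read 11.37 and 11.38 in TH, 10.6995 and 10.77 in TL, 11.42 and 11.40 in DH, and 9.95 and 9.94 in DL. Both breeds were higher at high altitude, by 0.64 in Tibetan and 1.46 in Duroc pigs. The altitude effect was 1.05 (standard error 0.02, adjusted p 4.09e-06 in limma) and the interaction -0.82 (adjusted p 4.38e-05). The breed effect of 0.38 was called, but TH minus DH, the breed contrast left without the TL arrays, was -0.03.

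CYP7A1, the rate-limiting enzyme of bile acid synthesis, read 7.44 and 7.35 in TH, 7.07 and 7.13 in TL, 9.40 and 9.31 in DH, and 8.999 and 8.93 in DL at its probe named by RefSeq accession (A_72_P078461). The breed effect was -1.91 (standard error 0.04, adjusted p 2.91e-06 in limma), or 3.77-fold lower in Tibetan pigs, with -1.57 and -2.25 on the slides. Of the CYP7A1 probes named by the tables, the brighter had the same order, 12.4 to 12.5 in the Tibetan groups against 13.2 to 13.9 in the Duroc groups. The other read 11.26 and 11.27 in TL and 8.04 to 8.82 elsewhere, so the probes of this gene disagreed.

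CYP24A1 (A_72_P088422), which inactivates vitamin D, read 10.52 and 10.48 in TH, 10.86 and 10.73 in TL, 10.23 and 10.23 in DH, and 9.92 and 9.86 in DL. Its breed effect of 0.59 was called (standard error 0.04, adjusted p 7.26e-05 in limma), and both Tibetan groups lay above both Duroc groups. The brighter probe of the tables overlapped between TH and DH, at 14.28 and 14.25 against 14.31 and 14.36, and was highest in TL at 15.71 and 15.72.

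CYP51 (A_72_P177531), the lanosterol demethylase of cholesterol synthesis, was lowest in TH at 13.93 on both arrays, with 14.43 and 14.45 in TL, 14.43 and 14.41 in DH, and 14.53 and 14.55 in DL. Breed and altitude were called at -0.30 and -0.32, but under 75th percentile scaling breed was -0.64 and altitude 0.05. CYP19A1, the aromatase, was higher at high altitude, by 0.49 (adjusted p 4.52e-05 in limma), with 11.01 and 10.97 in TH, 10.29 and 10.21 in TL, 10.80 on both DH arrays, and 10.56 and 10.55 in DL. Another CYP19A1 probe was not above background on any array. CYP11A1, CYP17A1, CYP21A2, CYP27B1 and CYP8B1, of steroid hormone, vitamin D and bile acid synthesis, were not above background on 1 or more arrays, and none was called for any effect by limma.

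Among the conjugating enzymes, the bright GSTO1, MGST1, MGST3, SULT1A3 and SULT1E1 varied less than SULT2A1. GSTO1, an omega class glutathione transferase, read 15.44 and 15.43 in TH, 15.003 and 15.04 in TL, 15.45 and 15.42 in DH, and 15.06 and 15.05 in DL. It was higher at high altitude in both breeds, by 0.42 and 0.38, and the altitude effect was 0.40 (standard error 0.02, adjusted p 2.38e-05 in limma). Under 75th percentile scaling the altitude effect of GSTO1 was 0.82, and an interaction of 0.67 and a breed effect of -0.38 were called as well. GSTA1, of the alpha class that conjugates lipid peroxidation products, read 11.36 and 11.42 in TH, 11.28 on both TL arrays, 10.89 and 10.92 in DH, and 11.41 on both DL arrays, and only its interaction of 0.61 was called (adjusted p 9.87e-05). MGST1, a microsomal glutathione transferase, read 14.55 and 14.53 in TH, 14.81 on both TL arrays, 14.91 and 15.01 in DH, and 15.06 on both DL arrays. MGST3, which also acts on lipid peroxides, read 14.63 and 14.68 in TH, 14.82 and 14.86 in TL, 15.25 and 15.16 in DH, and 15.13 and 15.17 in DL. All 4 Tibetan arrays lay below all 4 Duroc arrays for both microsomal enzymes, but their breed effects of -0.34 and -0.43 were not called (adjusted p 0.000212 and 0.000126 in limma). Under 75th percentile scaling they were -0.69 and -0.80 and both were called (adjusted p 1.38e-05 and 1.30e-05 in limma).

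SULT1A3, a phenol sulfotransferase with 4 probes, had the smallest range over the 8 arrays among the 29 genes. At its brightest probe it read 16.80 and 16.91 in TH, 17.02 and 17.07 in TL, 16.90 and 17.01 in DH, and 17.08 and 17.02 in DL, and its breed effect was -0.05. Under 75th percentile scaling the breed effect of this probe was -0.37 and its altitude effect 0.27, neither called. At the dimmer probe A_72_P282179 they were then -0.40 and 0.31 and both were called, while the remaining probes were called for neither. The estrogen sulfotransferase SULT1E1 read 12.93 and 12.92 in TH, 13.22 and 13.37 in TL, 12.98 and 13.10 in DH, and 13.38 on both DL arrays, with an altitude effect of -0.36 that was not called (adjusted p 0.0014 in limma). SULT2A1, the hydroxysteroid sulfotransferase of liver and adrenal, read 9.80 and 9.85 in TH, 8.03 and 8.18 in TL, 8.36 and 8.32 in DH, and 7.34 and 7.67 in DL. TH was 3.29-fold above TL, but the altitude effect of 1.28 just missed the threshold (adjusted p 0.000101 in limma), as did the breed effect of 1.04 (0.000211). Both were called with raw spot signals, and only breed under 75th percentile scaling. Its dimmer probe was also highest in TH, at 7.41 and 7.56, and not well above background in either Duroc group.

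FMO1 (A_72_P165386) was lowest in TH and highest in TL, with 16.53 and 16.58 in TH, 17.52 and 17.55 in TL, 17.17 and 17.08 in DH, and 16.89 and 16.97 in DL. Only its interaction of -1.18 was called (standard error 0.07, adjusted p 5.33e-05 in limma). Scaled to the 75th percentile, it was -0.73 and missed the threshold (adjusted p 0.000161).

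ALDH2, the mitochondrial enzyme that clears acetaldehyde, was called as lower at high altitude, but not under every scaling. Its brightest probe (A_72_P217642) read 15.93 and 16.01 in TH, 16.32 and 16.40 in TL, 15.65 and 15.67 in DH, and 16.25 and 16.26 in DL. The altitude effect was -0.49 (standard error 0.03, adjusted p 6.02e-05 in limma). Scaled to the 75th percentile, it was -0.05 (adjusted p 0.202 in limma). The other ALDH2 probes gave -0.52, which was called, and -0.58, which was not, and DH was lowest at all 3 probes.

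The probes named only by the tables included the largest spread among dehydrogenases. ADH1C, a class I alcohol dehydrogenase that also oxidizes retinol, read 14.27 and 14.24 in TH, 16.57 and 16.60 in TL, 10.93 and 10.92 in DH, and 14.43 and 14.49 in DL. Both low altitude groups were higher than the group of the same breed at high altitude. ALDH1A1, a retinal dehydrogenase, was lowest in DH at both of its probes, with 12.04 and 12.01 at the brighter against 13.00 and 12.97 in DL and 13.47 to 13.51 in the Tibetan groups. ALDH3A2, the fatty aldehyde dehydrogenase, read 15.08 and 15.04 in TL and 12.79 to 13.34 elsewhere.

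UGT2A1, a glucuronosyltransferase of the airway and olfactory epithelium, read 11.99 and 11.97 in TH, 11.85 and 11.80 in TL, 8.46 and 8.33 in DH, and 9.995 and 9.998 in DL. The Tibetan groups lay above both Duroc groups. BPIFA1 and BPIFB1, secreted by airway epithelium, were the 2 of 8 listed club and secretory genes with a tested probe, and both were higher in Tibetan pigs, by 5.35 and 1.43. The log2 of their summed signal was 14.99 to 15.04 in TH, 16.07 to 16.09 in TL, 12.64 to 12.69 in DH and 12.59 to 12.62 in DL. The part of airway cells in the values of UGT2A1 and ALDH1A1 was not tested.

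UGT1A6, which glucuronidates phenols, was highest in TH at 12.51 and 12.49, with 10.52 to 11.11 elsewhere. CYP4B1, an abundant lung P450, was lowest in TL at 12.39 and 12.40 and read 13.78 to 13.96 elsewhere. CYP3A39 was lowest in DL at 9.19 and 9.15 against 11.23 to 11.60 elsewhere, so that CYP3A39 and CYP3A46 were both lowest in DL. CYP2C91, at both probes, CYP7B1, UGT2B31 and ALDH18A1 were highest in TL, and ALDH18A1 was well above background in TL only. GSTA2 read 8.63 and 8.70 in TH and 9.56 to 10.48 elsewhere, and CYP20A1 was lowest in TL at 9.71 and 9.67. Both TL arrays were highest at 9 of these 18 probes, and at 26.6% of all tested probes. The 18 probes were listed for their effects in the same arrays.

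**Figure D5:**
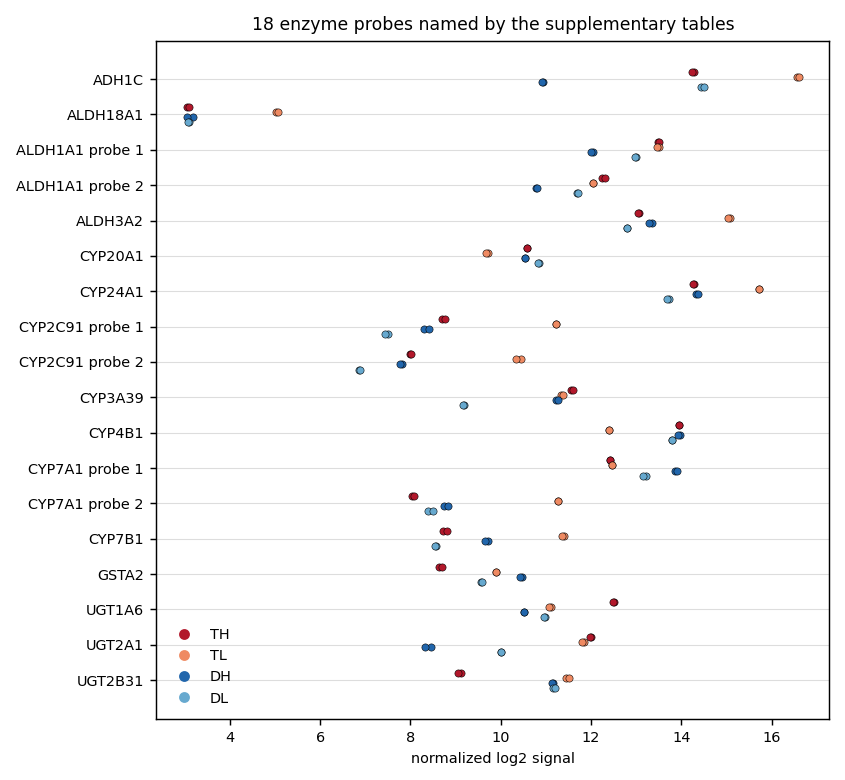
Normalized log2 signal (horizontal axis) of the 18 enzyme probes named only by the supplementary tables, with 1 point per array. These probes were listed for their effects in the same arrays. ADH1C spans 10.92 to 16.60. The TL points lie to the right in 9 rows, as they do for 26.6% of all tested probes.

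Other genes of the pathway were counted at their brightest probe named by RefSeq accession. Of 34 partner enzymes and transporters, 13 were measured, and 1 was called higher and 5 lower in Tibetan pigs. For breed 27.4% of all tested probes were called, and 28.6% of those named by RefSeq accession, 230 higher and 478 lower. CES1, a carboxylesterase, was the one called higher, by 0.84, but its interaction of -2.17 was called too, and TH minus DH was -0.24. The aldo-keto reductase AKR1C1, with a breed effect of -1.12, prostaglandin reductase PTGR1, at -1.21, soluble epoxide hydrolase EPHX2, at -0.999, and the glutathione hydrolase GGT1, at -1.36, were among the 5 lower. For altitude 4 were higher and 2 lower, where 26.3% of all tested probes and 36.0% of those named by RefSeq accession were called. Of 14 regulators, 7 were measured. Called were only PPARG, lower in Tibetan pigs by a breed effect of -0.54, and HIF1A, with an interaction of 1.01. Neither was called with raw spot signals. Of tested probes named by RefSeq accession, 28.6% were called for breed and 27.8% for the interaction. Of 13 genes of retinoid handling, 4 were measured, and RBP4, DHRS4 and STRA6 were called for altitude, at 0.64, 0.66 and 1.26, with STRA6 above background on 4 arrays. The difference of RBP4 was opposite between the breeds, with -0.22 for DH minus DL and a called interaction of 1.71, and its altitude call was lost with raw spot signals. The altitude call of DHRS4 was lost in the same way. Its interaction of 0.82 was called, but not with raw spot signals, with TH minus TL at 1.07 and DH minus DL at 0.25.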

How the data were processed

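Each of 8 lung RNAs was labeled with the same dye and placed on its own array, 4 arrays to a slide. The authors scanned the arrays with Agilent Feature Extraction (version 10.7.3.1 per the file headers, 9.1 in the submitters' processing notes) and deposited the intensity of each spot as a median signal and a processed signal. They also deposited a table of normalized log2 values, by RMA as the methods state, with a median of 7.40 on every array. The log2 table gave the values here, and no sample column was left unused. Groups came from the sample labels.

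A probe was tested where it was well above background on at least 1 array (34406 probes). The factors breed and altitude and the interaction term entered a linear model in limma 3.58.1 (R 4.3.3), which moderates the variances, with p-values adjusted over all tested probes after Benjamini and Hochberg and the FDR of 0.0001 of the methods as the threshold. Python 3.11.15, numpy 2.4.6, pandas 2.3.3 and matplotlib 3.10.9 were used for tables and figures. In simulated data for the breed effect, with 34406 probes and 200 brighter ones changed by 2 log2 units, 187 were recovered with 0 false calls. The simulated noise was independent, had the spread between arrays of a group and held no slide or position difference. The simulation therefore cannot show false calls that come from slide, position or animals.

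Of 3250 probes with a RefSeq accession, 2683 matched a symbol of assembly Sscrofa11.1; 3655 probes had a symbol in the supplementary tables, which were used in part. Both sources named 660 probes, with an identical symbol for 98.0%. A gene was taken at its brightest probe named by RefSeq accession. Genes given on every array were the 8 with the largest called breed, altitude and interaction effects and a list of enzymes of lung; genes outside these were named where a count or another probe called for it. The members, gene lists and marker lists were chosen with earlier results of these data known. "At least" folds compare the mean of the brighter group with the mean, over the arrays of the dimmer group, of the higher of the weakest signal well above background and the probe's own signal.

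The alternatives were raw spot signals with normexp (offset 0) and quantile normalization, processed signals scaled to the 75th percentile, other filters on dim probes, no moderation, an intensity trend, other FDR thresholds, the replicate number or the slide as a block, each array or both TL arrays left out, and the probes named by the tables counted. The number of arrays limits the precision. No probe or gene sequence was used here.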

Additional observations from a re-analysis of the deposited data

Results flagged for a closer look

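The breed difference of 9 of the 29 enzyme genes (31.0%) differed between the altitudes, as tested by the interaction in limma at an FDR below 0.0001. This share is near the 28.4% of all tested probes and 27.8% of those named by RefSeq accession that were called. The coefficients were 3.39 for CYP2D25, 2.71 for CYP1A1, 1.91 for CYP2E1, 1.63 for CYP2C49, 1.32 for CYP2A19, 0.61 for GSTA1, -0.82 for CYP39A1, -1.18 for FMO1 and -1.38 for CYP3A46. The slide of each group follows the same contrast, and interaction and slide cannot be told apart. The median interaction over all tested probes was 0.21, and 0.34 with scaling to the 75th percentile. Over tested probes named by RefSeq accession it was 0.37.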

How the results depend on the processing

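The counts of member probes called for breed, altitude and the interaction were 12, 15 and 11 of 41. Without moderation of the variances they were 5, 9 and 6, with the replicate number as a block 4, 5 and 5, at an FDR below 0.01 25, 29 and 26, at an FDR below 0.05 29, 31 and 31, and 30, 31 and 29 of 59 where probes named by the tables, which list effects in these arrays, were counted too. Raw spot signals gave 6 for breed. With each array left out in turn the counts were 3 to 4, 3 to 6 and 4 to 6. Without both TL arrays the breed contrast was TH minus DH and the altitude contrast DH minus DL, which are not averages over both altitudes or breeds. For these, 2 and 0 were called in limma, with 30 and 26 at an unadjusted p under 0.05, and the interaction could not be fitted. Replicate numbers do not pair the samples, since the deviations of same-numbered arrays correlated at -0.04 to 0.09. The other filters, the intensity trend, and the 75th percentile left each count within 1.5 times, as did the slide as a block for breed and altitude, the interaction being aliased with the slide. Of 33 called effects of named genes, 27 stayed called with scaling to the 75th percentile, 21 with raw spot signals, 13 with the replicate block and 10 with each array left out. For 5 effects the contrast without both TL arrays had the opposite sign to the averaged effect. These were CYP2A19 altitude at -0.27, CYP2D25 breed at 1.41 and altitude at -0.48, CYP39A1 breed at -0.0322 and CYP3A46 breed at -0.0699. The 75th percentile turned CYP51 altitude to 0.0542. The cause was not tested.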
